A study of Mus musculus with 6 samples.

Results

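Interferon-stimulated effector genes encode the proteins that a cell makes to restrict viruses after it has sensed interferon. A list of 55 such mouse genes was followed member by member in 3T3 cells, a line of albino Swiss mouse embryo fibroblasts, with and without induction of human PARG (hPARG), the enzyme that removes poly(ADP-ribose) from proteins. The members were chosen by name and role, with earlier results of these data known. All 55 were found among the 41819 genes of the deposited count table. Of the 55, 54 were among the 11509 genes with enough reads to be tested. All 6 dishes came from 1 puromycin-resistant clone, grown in puromycin, that carried an hPARG cassette under the doxycycline-inducible TetOne promoter with the fluorescent protein mClover3 on a lentiviral vector, and the labels give the type of the cells as malignant. The paper's RNA-seq methods name the construct without mClover3, and its other methods name it with mClover3. The 3 control dishes received no doxycycline and the 3 hPARG dishes received 500 ng/ml doxycycline, both for 72 h. Doxycycline itself, hPARG and any mClover3 induced with it therefore cannot be told apart. Replicates are dishes of that clone, and the p-values measure the spread between these dishes.

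Type I interferons bind a receptor of Ifnar1 and Ifnar2, whose kinases Jak1 and Tyk2 activate a complex of transcription factors. That complex, which holds Irf9, binds the interferon-stimulated response element (ISRE) in the promoters of effector genes. The response to interferon gamma runs through another promoter element, the gamma-activated sequence (GAS). Fibroblasts keep many of these genes at a low level without added interferon and make more of them after infection.

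Promoter sequences (RefSeq, GRCm38.p6, 250 bases before to 50 bases after each start) were found for 43 of the 55 genes, and they show what many members have in common. The ISRE core was searched as TTTC, any 2 bases and TTTC, which reads GAAA, any 2 bases and GAAA on the other strand, and the GAS as TTC, any 3 bases and GAA, which reads the same on both strands. Matches were allowed to share bases with each other. The ISRE core was in a promoter of 24 of the 43 genes (55.8%), against 3.99% of all 27025 genes with a promoter in that table. The GAS was in a promoter of 10 of the 43 (23.3%), against 9.55% of all. The stretches around the core in 6 members are given 5′ to 3′ in the direction of the gene, with every match of the ISRE core in capitals. They were taken to show the motif in members of several subfamilies and in 2 pairs of near-identical copies.
Ifit1, chr19:34640774-34640843, plus strand: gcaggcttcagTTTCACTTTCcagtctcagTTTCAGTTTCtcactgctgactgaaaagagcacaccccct
Ifit3, chr19:34583365-34583446, plus strand: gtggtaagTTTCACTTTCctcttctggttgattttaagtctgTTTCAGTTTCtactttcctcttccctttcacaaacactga
Ifit3b, chr19:34607761-34607842, plus strand: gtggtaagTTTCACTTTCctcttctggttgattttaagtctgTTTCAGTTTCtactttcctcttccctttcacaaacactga
Oas1a, chr5:120907526-120907569, minus strand: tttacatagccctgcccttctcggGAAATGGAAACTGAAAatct
Oas1g, chr5:120887614-120887655, minus strand: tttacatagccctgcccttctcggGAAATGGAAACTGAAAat
Isg15, chr4:156200845-156200914, minus strand: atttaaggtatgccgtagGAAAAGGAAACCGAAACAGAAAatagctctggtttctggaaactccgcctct
All 82 bases were the same in Ifit3 and Ifit3b, and so were all 42 bases that Oas1a and Oas1g could be compared over. Ifit1, Ifit3 and Ifit3b each had a pair of separate matches, whereas those of Isg15, Oas1a and Oas1g overlapped in 1 run.

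The dishes held between 21619908 and 25263818 counts. Both dishes numbered 2 stood apart from the others on the first principal component, which held 42% of the variance. It placed them at 21.6 (control) and 24.7 (hPARG). The other 4 dishes were spread as well, from -27.4 (control dish 3) to -3.17 (control dish 1). Values without both dishes numbered 2 are therefore given for the members as a group and for many of the named genes. The plot of log2 fold changes shows these values for every tested member. The deviation of a dish numbered 2 from its group mean moved with exon length. Across the 54 tested members, which share a library, the Spearman rho was 0.473 in the control dish and 0.625 in the hPARG dish. Across all tested genes it was 0.53 and 0.521, so the relation was not particular to the members. The transgene is human and was not analysed here, and the mouse Parg gene had 48.6, 56.7 and 48.6 CPM (its counts over the TMM-scaled size of the library) in the control dishes and 50.2, 57.7 and 50.3 in the hPARG dishes. The 8 fibroblast markers were all read. Vim was at the top with 1522 RPKM in control (the authors' values per gene length, whose lengths and library totals are not stated). Col1a1, Col3a1 and Thy1 were higher and Pdgfra was lower in hPARG at an unadjusted p under 0.05 in edgeR's quasi-likelihood test. These were 3 of the 8 markers higher and 1 lower, against 1.42% and 2.54% of all tested genes. Their part in the results was not tested. Of 7 leukocyte markers only Cd68 was tested, no dish had more than 23 counts of any, and Adgre1 and Cd3e had none.

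**Figure D1:**
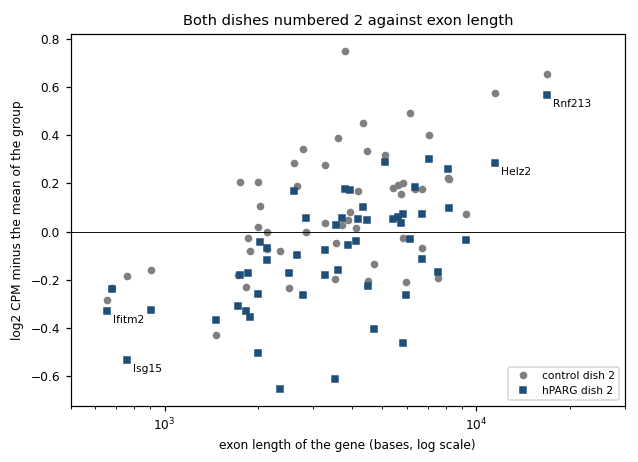
Log2 CPM of each of the 54 tested members in control dish 2 (grey circles) and hPARG dish 2 (blue squares) minus the mean of its group, against the exon length of the gene in bases on a log axis. Rnf213, the longest at 16888 bases, lies at 0.654 and 0.568, and Ifitm2, the shortest at 655 bases, at -0.284 and -0.328.

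The effector genes as a group lay lower in the hPARG dishes, by a small amount per gene, and no single member passed the test. The median log2 fold change of the 54 tested members was -0.26, which is 83.3% of the control level, against 0.00 for all 11509 tested genes. A difference was below 0 in 50 of the 54 members (92.6%), against 49.1% of all tested genes. None of the 54 passed a false discovery rate (FDR, Benjamini-Hochberg over all tested genes) of 0.05 in edgeR's quasi-likelihood test, where 0.0869% of all tested genes did (0.0782% lower and 0.00869% higher), and the lowest FDR was 0.419. By unadjusted p under 0.05 in that test, 18 members were lower (33.3%, against 2.54% of all tested genes) and 0 were higher (against 1.42%). DESeq2 put 3 members past the FDR, namely Ifit3, Rtp4 and Ifi204, all lower, where it called 0.339% of all tested genes lower. In bulk RNA a lower value can come from fewer cells with the transcript or from less transcript per cell, and these cannot be told apart.

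The dishes showed the same order without a model. All 3 hPARG dishes lay below all 3 control dishes in 21 members (38.9%), against 6% of all tested genes, and above them in 1 member, Lgals9, against 3.61%. The members held 0.187%, 0.203% and 0.187% of all counts in the control dishes and 0.169%, 0.166% and 0.168% in the hPARG dishes. Relative to the control mean, the median member lay at -0.07, 0.06 and 0.01 (log2) in the control dishes and at -0.22, -0.38 and -0.29 in the hPARG dishes, so that hPARG dish 2 was the lowest and no hPARG dish reached a control dish. Without both dishes numbered 2, the median log2 fold change was -0.20, a difference was below 0 in 46 members (48.4% of all tested genes), and 15 members were lower at an unadjusted p under 0.05 in edgeR's quasi-likelihood test (3.3% of all tested genes), with 0 higher (3.48%). Both remaining hPARG dishes then lay below both remaining control dishes in 30 members, against 18% of all tested genes. The lowest FDR was then 0.104, so again none passed. Oas1g, Oas2, Zbp1 and Helz2 were the 4 members that moved from below to above 0, at 0.03, 0.09, 0.17 and 0.01 on the log2 scale.

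**Figure D2:**
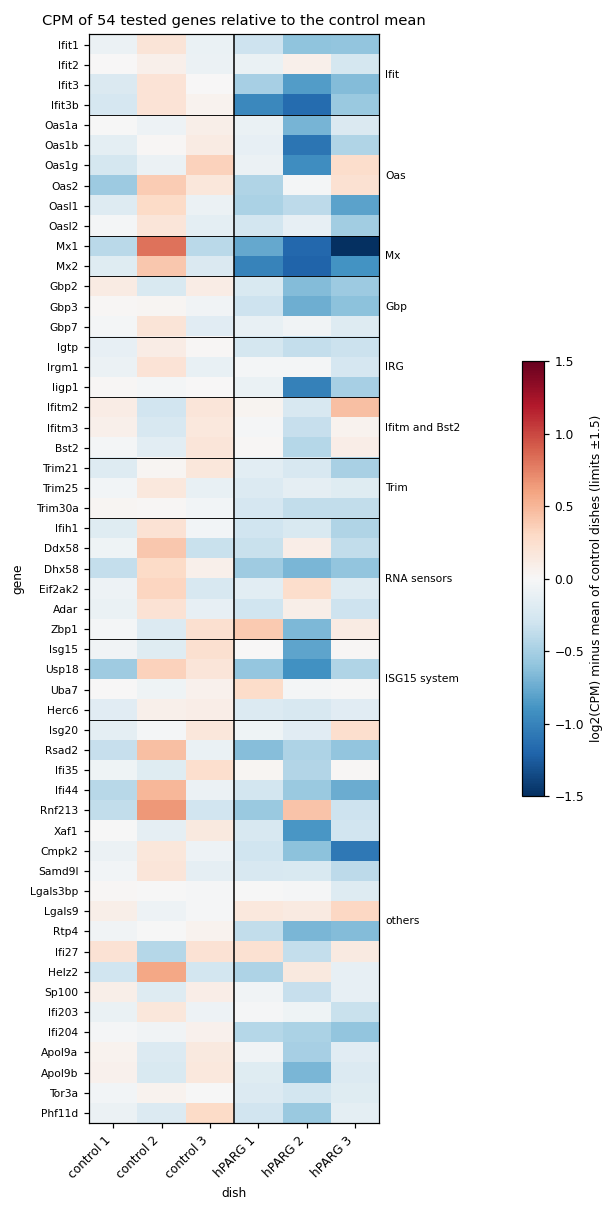
CPM of the 54 tested members in each of the 6 dishes as log2 relative to the mean of the control dishes, in rows by subfamily (colour limits ±1.5). The median member is at -0.22, -0.38 and -0.29 in the hPARG dishes, and 46, 47 and 43 members lie below the control mean there. In control dishes 1, 2 and 3, 40, 22 and 25 members lie below it, so this count in control dish 1 is near that in hPARG dish 3.

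**Figure D3:**
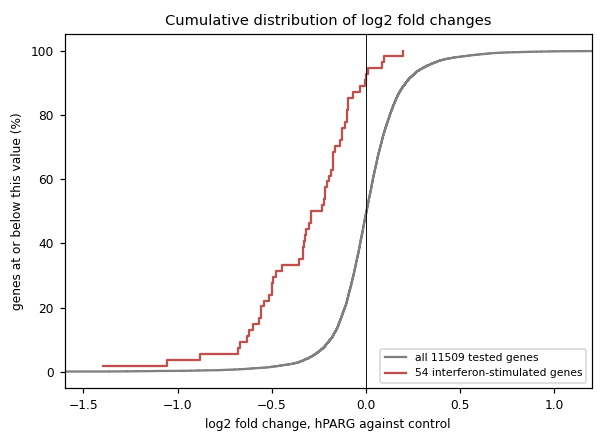
Cumulative share of genes by log2 fold change, for the 54 tested members and for all 11509 tested genes. The curve of the members lies to the left, with quartiles at -0.50 and -0.12 against -0.09 and 0.10, and 27 members (50%) lie below -0.25, as do 6.34% of all genes.

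The Ifit proteins bind viral RNA that lacks the marks of host messenger RNA, and their genes lie side by side on chromosome 19. Ifit1 (chr19:34640871-34650009) was read at 49.6, 60.2 and 49.2 CPM in the control dishes and 42.6, 34.8 and 35.0 CPM with hPARG, which gave a log2 fold change of -0.50 with a standard error of 0.13 (FDR = 0.713, edgeR's quasi-likelihood test). All hPARG dishes lay below all control dishes, and the difference was -0.34 without both dishes numbered 2. Ifit3 (chr19:34583531-34588731), whose human counterpart stabilises IFIT1 on RNA, had 18.9, 25.3 and 22.0 CPM in control and 15.5, 12.2 and 14.0 CPM in hPARG, a log2 fold change of -0.67 with a standard error of 0.15 (FDR = 0.468, edgeR's quasi-likelihood test) and of -0.46 without both dishes numbered 2. Its copy Ifit3b (chr19:34607970-34613401) had 6.36, 8.78 and 7.87 CPM in control and 3.90, 3.42 and 5.18 CPM in hPARG, a log2 fold change of -0.88 with a standard error of 0.20, and of -0.64 without both dishes numbered 2. Ifit3 shares 31.7% and Ifit3b 27.4% of its 100-base transcript windows with another gene, so the split of reads between them is uncertain, and the sum of both had a log2 fold change of -0.72 with a standard error of 0.15 (FDR = 0.41 in edgeR's quasi-likelihood test).

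Ifit2 was the 1 gene of the family without a match to the ISRE core in the promoter stretches searched. An element outside those stretches, or with other letters, would have been missed. A link of the missing match to its difference was not tested. Ifit2 had the smallest difference of the 4 Ifit genes. It had 65.8, 69.1 and 61.3 CPM in control and 60.9, 68.7 and 54.3 CPM in hPARG, a log2 fold change of -0.09 with a standard error of 0.12, and its groups overlapped. Over the 4 Ifit genes the median was -0.58, and -0.40 without both dishes numbered 2.

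**Figure D4:**
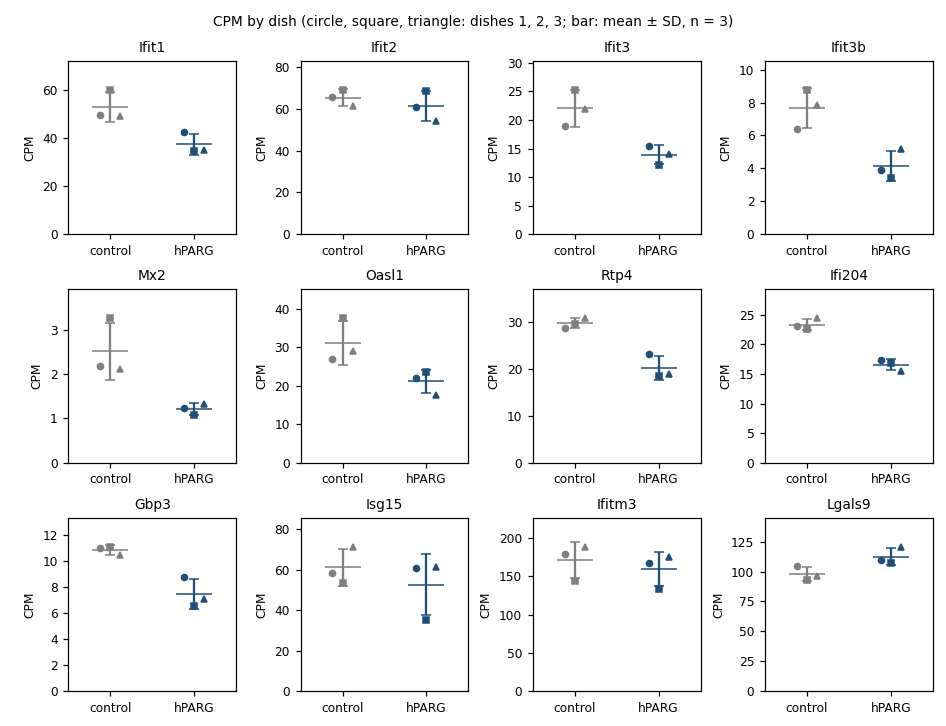
CPM of 12 members in every dish (circle, square and triangle for dishes 1, 2 and 3), with the mean ± SD of each group (n = 3). Ifit1, Ifit3, Ifit3b, Mx2, Oasl1, Rtp4, Ifi204 and Gbp3 have no hPARG dish as high as a control dish, Ifit2, Isg15 and Ifitm3 overlap, and Lgals9 is higher in every hPARG dish.

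The Oas enzymes make 2′-5′-linked oligoadenylates on double-stranded RNA and so switch on RNase L, and the Oasl proteins are related. Oasl1, which represses translation of Irf7, had 26.9, 37.5 and 28.9 CPM in control and 22.1, 23.6 and 17.7 CPM in hPARG, a log2 fold change of -0.56 with a standard error of 0.17 (FDR = 0.876, edgeR's quasi-likelihood test). Every hPARG dish was below every control dish, and without both dishes numbered 2 the difference was -0.48. Oas1a, which makes oligoadenylates, had 6.52, 6.19 and 6.98 CPM in control and 6.10, 4.04 and 5.64 CPM in hPARG. Its groups did not overlap but nearly met at control dish 2 and hPARG dish 1, and the log2 fold change was -0.32 with a standard error of 0.18, but -0.16 without hPARG dish 2. Oasl2 had the most reads of the 6, at 36.7, 42.4 and 33.8 CPM in control and 31.0, 34.5 and 26.2 CPM in hPARG, and its groups overlapped. Oas1a shares 40.9% and Oas1g 31.2% of its transcript windows with another gene, and their sum had a log2 fold change of -0.28 with a standard error of 0.20. The remaining Oas1b (a polymorphic pseudogene in GENCODE M21), Oas1g and Oas2 overlapped between the groups, with log2 fold changes between -0.51 and -0.10.

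Mx proteins are dynamin-like GTPases that trap viral nucleocapsids, and both mouse genes lay below their control dishes in every hPARG dish. GENCODE M21 lists Mx1 as protein-coding but Mx2 as a polymorphic pseudogene. Mx2 had 2.19, 3.27 and 2.12 CPM in control and 1.24, 1.07 and 1.33 CPM in hPARG, from 76 counts at most, with a log2 fold change of -1.06 and a standard error of 0.26 (FDR = 0.683, edgeR's quasi-likelihood test). Mx1 was read at 18, 38 and 15 counts in control and 12, 10 and 4 counts in hPARG, with a log2 fold change of -1.39 and a standard error of 0.52. These were the 2 members that lay past 2-fold, with 38 of all tested genes as low, and both moved toward 0 without the dishes numbered 2, to -0.74 for Mx2 and -0.93 for Mx1. Control dish 2 was the highest dish for both, and without it alone Mx1 stood at -0.87.

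The Gbp and IRG families are GTPases, induced mainly by interferon gamma, that attack vacuoles of intracellular pathogens. Gbp3 had 11.1, 11.1 and 10.5 CPM in control and 8.80, 6.55 and 7.11 CPM in hPARG, a log2 fold change of -0.54 with a standard error of 0.14 (FDR = 0.713, edgeR's quasi-likelihood test), and its groups did not overlap. Gbp2 had the most reads of the 3 Gbp genes and a log2 fold change of -0.47, but control dish 2 at 29.7 CPM lay below hPARG dish 1 at 29.8 CPM. Without both dishes numbered 2, Gbp2 stood at -0.49 and Gbp3 at -0.43. Gbp7 was at -0.12 with overlap, and the summed counts of the 3 genes at -0.42 with a standard error of 0.12. Igtp (also Irgm3), an IRG GTPase, was lower in every hPARG dish, at 12.8, 15.0 and 14.1 CPM in control and 11.6, 10.9 and 11.2 CPM in hPARG. Iigp1, whose product coats parasite vacuoles, had 5.39, 5.21 and 5.33 CPM in control and 4.95, 2.64 and 3.76 CPM in hPARG, without overlap, and its log2 fold change of -0.49 was -0.28 without hPARG dish 2. Irgm1, a regulator of those GTPases, overlapped at a log2 fold change of -0.11 and had the most reads of the IRG genes.

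The transmembrane restriction factors held the 3 highest levels per length of all members and the median log2 fold change nearest to 0 of the 10 subfamilies, at -0.09. Per length, Ifitm3, which stops viruses from fusing in endosomes, was first at 233 ± 25.5 RPKM in control (SD, n = 3), followed by Ifitm2 at 207 ± 28.3, and these neighbours did not differ beyond their spread. Bst2, which tethers budding virions, followed at 123 ± 10.5 RPKM and Isg15 at 74.7 ± 8.66 RPKM. Ifitm3 had 179, 144 and 189 CPM in control and 168, 134 and 176 CPM in hPARG, and Bst2 had 103, 93.7 and 119 CPM in control and 106, 77.6 and 112 CPM in hPARG. Both genes overlapped between the groups, with log2 fold changes of -0.10 and -0.09, and their sign changed when single dishes were left out. Ifitm2 was at 0.10, or -0.02 with a correction for exon length, and 34.9% of its transcript windows are shared with other genes. Ifitm1, with 3, 1 and 0 counts in control and 1, 1 and 1 in hPARG, was at the floor of 3 counts in a dish or under it and was not compared.

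Trim proteins are ubiquitin ligases that act on viral proteins and sensors. Trim30a, which lowers NF-kB signalling, had 60.1, 59.5 and 57.3 CPM in control and 49.5, 45.7 and 45.7 CPM in hPARG, a log2 fold change of -0.33 with a standard error of 0.09 (FDR = 0.808, edgeR's quasi-likelihood test). Its dishes were close together within each group, and the value without both dishes numbered 2 was -0.30. Trim25, the activator of RIG-I, had 94.7, 109 and 89.8 CPM in control and 84.8, 88.8 and 86.0 CPM in hPARG, without overlap, and its log2 fold change of -0.18 was -0.09 without control dish 2. Trim21, an antibody receptor in the cytosol, overlapped at a log2 fold change of -0.29.

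The RNA sensors had a median log2 fold change of -0.19 and no member at an unadjusted p under 0.05. Ifih1 (MDA5) senses long double-stranded RNA and had 5.58, 7.40 and 6.18 CPM in control and 5.13, 5.40 and 4.63 CPM in hPARG, a log2 fold change of -0.33, or -0.21 without control dish 2. Dhx58 (LGP2), its partner, had 1.29, 2.02 and 1.74 CPM in control and 1.15, 1.03 and 1.10 CPM in hPARG, a log2 fold change of -0.62 with a standard error of 0.27. In both genes all hPARG dishes lay below all control dishes, and without both dishes numbered 2 they stood at -0.26 (Ifih1) and -0.42 (Dhx58). Ddx58 (RIG-I), Eif2ak2 (PKR, which halts translation), Adar (which edits double-stranded RNA) and Zbp1 (a sensor of left-handed nucleic acid) overlapped. Adar had the most reads of them, at 52.4, 65.6 and 51.8 CPM in control and 45.6, 59.6 and 45.2 CPM in hPARG. For Adar 16.8% of the exon bases lie opposite exons of another gene, and whether strand was used in counting is not given in the sources used here.

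Isg15 is a ubiquitin-like protein that is joined to other proteins by Uba7 and ligases such as Herc6 and removed by Usp18, which also dampens the interferon receptor. Isg15 had 58.5, 53.3 and 71.4 CPM in control and 61.0, 35.1 and 61.4 CPM in hPARG, a log2 fold change of -0.22 with a standard error of 0.22. That value rested on hPARG dish 2 and was 0.00 without it. Usp18 had 6.25, 11.4 and 10.2 CPM in control and 6.00, 4.78 and 6.61 CPM in hPARG, a log2 fold change of -0.68 with a standard error of 0.24, where control dish 1 lay among the hPARG dishes, and the value was -0.37 without both dishes numbered 2. Herc6 was at -0.21 and Uba7 at 0.09, both with overlap.

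Among the other 20 effectors, Rtp4 and Ifi204 had the lowest FDR of all members. Rtp4, a zinc-finger protein that restricts flaviviruses, had 28.8, 29.7 and 30.9 CPM in control and 23.1, 18.6 and 19.0 CPM in hPARG, a log2 fold change of -0.56 with a standard error of 0.12 (FDR = 0.419, edgeR's quasi-likelihood test). Ifi204, a nuclear DNA sensor of the HIN-200 family, had 23.1, 22.5 and 24.4 CPM in control and 17.3, 16.8 and 15.5 CPM in hPARG, a log2 fold change of -0.50 with a standard error of 0.10 (FDR = 0.419, edgeR's quasi-likelihood test). The lowest control dish lay well above the highest hPARG dish in both genes, and without both dishes numbered 2 they stood at -0.50 and -0.53. Rtp4 shares 9.28% and Ifi204 10.7% of its transcript windows with other genes.

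Rsad2 (viperin), which makes a chain-terminating nucleotide, had 14.7, 25.6 and 17.4 CPM in control and 12.0, 13.6 and 12.5 CPM in hPARG. Its neighbour on the chromosome Cmpk2, a mitochondrial nucleotide kinase, had 13.6, 16.3 and 13.7 CPM in control and 11.7, 9.48 and 6.88 CPM in hPARG. Neither overlapped between the groups, at log2 fold changes of -0.60 (standard error 0.20) and -0.63 (standard error 0.19). Rsad2 stood at -0.34 without control dish 2, its highest dish, and without both dishes numbered 2 at -0.39, with Cmpk2 at -0.55.

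Samd9l, an antiviral and growth-limiting protein, had 66.5, 77.6 and 62.2 CPM in control and 57.9, 58.2 and 52.3 CPM in hPARG. Xaf1, a promoter of apoptosis, had 13.0, 11.9 and 14.5 CPM in control and 11.1, 7.13 and 10.8 CPM in hPARG, a log2 fold change of -0.45, or -0.27 without hPARG dish 2. Tor3a, an ATPase of the endoplasmic reticulum, had 41.5, 44.1 and 42.4 CPM in control and 37.0, 35.2 and 37.6 CPM in hPARG, so that in these 3 genes too no hPARG dish reached a control dish.

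Lgals9 (galectin-9) was the 1 member with every hPARG dish above every control dish, at 104, 93.0 and 96.3 CPM in control and 109, 107 and 121 CPM in hPARG. Its log2 fold change was 0.20 with a standard error of 0.10, and 0.20 as well without both dishes numbered 2, and it did not pass the test. Rnf213, a very large ubiquitin ligase, had 100.2, 204 and 106 CPM in control and 88.3, 174 and 104 CPM in hPARG, where the dishes numbered 2 were the highest of both groups, and its sign turned to 0.24 without control dish 2. The other 11 members of this set (Isg20, Ifi35, Ifi44, Lgals3bp, Ifi27, Helz2, Sp100, Ifi203, Apol9a, Apol9b and Phf11d) overlapped, with log2 fold changes between -0.56 (Ifi44, which was at -0.27 without control dish 2) and 0.01 (Isg20, which was at -0.01 when scaled by library size only). Apol9a shares 11.7% and Apol9b 36.7% of its transcript windows with another gene, and their sum had a log2 fold change of -0.29 with a standard error of 0.16.

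**Figure D5:**
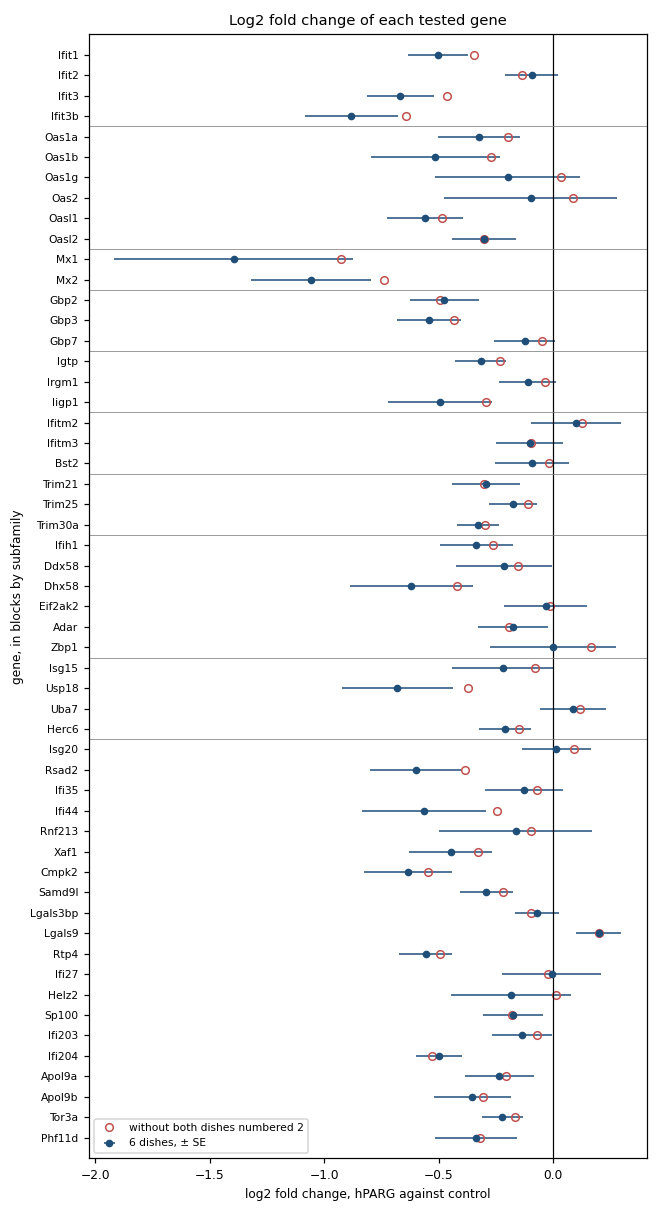
Log2 fold change of hPARG against control for each of the 54 tested members in blocks by subfamily, as filled circles ± SE from 6 dishes and open circles without both dishes numbered 2. The medians of the blocks run from -1.23 (Mx) and -0.58 (Ifit) to -0.09 (Ifitm and Bst2), and 4 filled circles lie above 0.

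The rest of the interferon pathway was examined as a list of 26 genes, of which 22 were tested. The ligand Ifnb1 had 2 counts in 1 control dish and none in the others, and Ifna4, Ifnl3 and the transcription factor Irf8 had none in any dish. The median log2 fold change of the 22 was -0.08. None of them passed the FDR of 0.05 in edgeR's quasi-likelihood test, where 0.0869% of all tested genes did. At an unadjusted p under 0.05 in that test, 3 were lower (against 2.54% of all tested genes) and 0 higher (against 1.42%). Irf1 and Socs1 were among these 3. Irf1, a transcription factor induced by interferon, had 95.0, 94.5 and 105 CPM in control and 81.0, 66.1 and 70.5 CPM in hPARG, a log2 fold change of -0.44 with a standard error of 0.11. Socs1, the feedback inhibitor of the kinases, had 25.7, 22.6 and 26.4 CPM in control and 22.3, 19.4 and 19.3 CPM in hPARG. In both genes every hPARG dish lay below every control dish. This was so for 4 of the 22 tested pathway genes, against 6% of all tested genes. The reverse held for 0 of them, against 3.61% of all. The receptors, their kinases and the adaptors of the sensors overlapped between the groups.

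The promoter match was set beside the differences as a description. Members counted as lower here had every hPARG dish below every control dish, as had 6% of all tested genes. The 24 tested members with the ISRE core had a median log2 fold change of -0.26, and 9 of them were lower. The 18 tested members with a promoter entry but no match had a median of -0.18, and 5 were lower. For the GAS the order was the other way. The median was -0.11 in the 10 tested members with a match (2 lower) and -0.29 in the 32 without one (12 lower). The 12 members with no promoter entry, among them Mx1, Mx2, Rtp4 and Ifi204, had a median of -0.51, and 7 were lower. The comparison thus leaves out several of the members that differed the most.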

How the data were processed

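Poly(A) RNA of 6 dishes was sequenced (the labels name wells of a plate, the paper's methods dishes). The authors mapped trimmed reads to GRCm38 with an Ensembl annotation in CLC Genomics Workbench, and deposited whole-number counts per gene. The authors also deposited RPKM values, with a library total that is not stated, used here only to compare levels between genes. The authors' fold changes and FDR values and 12 columns of TPM and CPM values were not used.

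Samples were grouped by their labels. Members and lists were chosen with earlier results of these data known. Genes were kept with filterByExpr (minimum count 10), normalized by TMM and compared without a block in edgeR 4.0.16 (R 4.3.3) with glmQLFTest, at an FDR under 0.05 over 11509 genes. The standard error is the log2 fold change over the root of F. The code was tested on simulated data. CPM are TMM-normalized. Alternatives were DESeq2 1.42.0, a likelihood ratio test, other normalizations and filters, a block, an exon length correction and leaving out dishes. With 3 dishes per group an exact permutation test cannot go under p = 0.1. The floor is 3 counts in a dish and covers counting error only, since reads had no molecular identifiers. All 41819 identifiers were found in GENCODE M21 and 177 names differed. Named with values were members whose dishes did not overlap, and in each subfamily the member with the most reads and the one with the largest difference. Other members and pathway genes given values were chosen after the values were seen. A gene of the pathway list is not reported here.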

Additional observations from a re-analysis of the deposited data

How the results depend on the processing

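Members past the FDR numbered 0 in edgeR's quasi-likelihood test and 0 under other size factors, other filters, exon length correction without a block and each dish left out, but 3 with DESeq2 (0.339% of all tested genes lower) and 5 with the likelihood ratio test (Ifit3, Ifit3b, Mx2, Rtp4 and Ifi204, with 0.417% of all lower), against 0.0782% of all in the quasi-likelihood test. Same-numbered dishes deviated together with correlations of 0.0963, 0.61 and 0.168, and 2 of 6 dishes correlated best with their own number, so that the numbers were not taken to pair the dishes, although both dishes numbered 2 deviated together. With that number as a replicate block, 14 members passed, all lower (with 1.56% of all tested genes lower), namely Ifit1, Ifit3, Ifit3b, Oasl1, Oasl2, Gbp2, Gbp3, Trim30a, Rsad2, Cmpk2, Samd9l, Rtp4, Ifi204 and Apol9b, and 14 passed with exon length correction as well (1.43% of all lower). At an unadjusted p under 0.05, 30 members were then lower, or 34 with both (8.92% and 10.3% of all tested genes, against 2.54% without), and 1 higher (8.98% and 8.05% of all), as was 1 with length correction and no block (2.04% of all). Of the pathway list 2 passed with the block and 1 with both, and 5 were lower at an unadjusted p under 0.05 in either. The cause of these shifts was not tested.

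The median log2 fold change of all tested genes was 0.004, and -0.024 by library size only, -0.007 with length correction, -0.006 with length correction and block, and -0.012 to 0.006 with a dish left out. The median of the members ranged from -0.325 to -0.252 with a dish left out, Ifit from -0.677 to -0.477 (-0.404 without both dishes numbered 2), Trim from -0.363 to -0.202 and the others from -0.312 to -0.217. Leaving out a dish gave 12 to 17 members lower at an unadjusted p under 0.05, against 1.45% to 2.44% of all tested genes. The log2 fold change of Ifitm2 was -0.018 with length correction and -0.021 with block and length correction, and that of Isg20 was -0.014 by library size only. With a dish left out, differences ranged from -0.108 to 0.249 for Ifitm2, -0.21 to 0.008 for Ifitm3, -0.197 to 0.053 for Bst2, -0.345 to 0.003 for Isg15, -0.505 to 0.243 for Rnf213, -0.018 to 0.145 for Uba7, -0.118 to 0.102 for Isg20, -0.382 to 0.012 for Ddx58, -0.195 to 0.143 for Eif2ak2 and -0.345 to 0.011 for Irf9. Of the 47 genes recomputed in these settings where they passed the filter, the sign of the others held. Oas1g, Oas2, Trim21, Zbp1, Herc6, Ifi35, Lgals3bp, Ifi27, Helz2, Sp100, Ifi203, Apol9a, Apol9b and Phf11d were not recomputed with each dish left out, and Ifi27 turned to 0.002 with the block. Precision is limited by 3 dishes per group.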
